A study of Homo sapiens with 4 samples.

Results

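The genes of the RAB family, the small GTPases that direct vesicle traffic, were examined in MV4-11 cells upon CEBPG knockdown. The members are all genes of the deposited table whose symbol is RAB followed by a number and at most 1 letter from A to D. This gave 53 of the 16490 genes, listed in 102 of the 28581 RefSeq transcripts that have values. MV4-11 is a human acute myeloid leukemia (AML) cell line, and CEBPG is a leucine-zipper transcription factor of the C/EBP family. The control hairpin sh-NC and the CEBPG hairpin sh-CEBPG#3 were each sequenced in 2 libraries, labelled as having CEBPG present or knocked down. Both groups carried a pLKO.1-puro lentiviral hairpin and were selected with puromycin, and a single CEBPG hairpin was sequenced, so an effect of that hairpin and an effect of CEBPG cannot be told apart.

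Rab proteins switch between a GTP-bound form on membranes and a GDP-bound form that is extracted into the cytosol. Guanine nucleotide exchange factors (GEFs) load them with GTP, GTPase-activating proteins (GAPs) return them to the GDP form, and GDP dissociation inhibitors (GDIs) hold them in the cytosol. Each Rab marks its own compartment, such as the Golgi apparatus, early endosomes, lysosomes or secretory granules, and recruits effectors that move, tether or fuse vesicles there. In myeloid cells this machinery serves phagocytosis, lysosomal digestion and the release of granules.

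The values are FPKM, which count fragments relative to transcript length and library size, so the levels of different genes can be compared per length. Transcripts were summed per gene, and the FPKM totals of the libraries ran from 364353 to 389766. Read depth is unknown, since FPKM carry no counts. Whether replicate libraries stem from independent infections is not stated, so the p-values measure the spread between these libraries, which may be technical. In bulk RNA, fewer cells of a type and less RNA per cell cannot be told apart. CEBPG itself had 30.4 and 33.6 FPKM in sh-NC cells and 19.2 and 17.1 FPKM in sh-CEBPG#3 cells, which is 56.8% of the control mean. All 8 myeloid and AML markers were tested, of which CD33, LYZ, MPO and SPI1 rose, HOXA9 and MEIS1 fell and FLT3 and PTPRC did not pass. MEIS1 fell most, from 6.65 and 7.34 FPKM to 3.42 and 3.29 FPKM (adjusted p = 8.31e-05 in limma), and PTPRC had 7.55 to 9.89 FPKM. Of other lineages, the 4 listed B cell markers summed to 2.83 to 3.24 FPKM, with PAX5 lower (1.96 and 2.21 against 1.32 and 1.46 FPKM, adjusted p = 0.0301). The epithelial marker KRT8 was higher, with 2.29 and 2.35 against 6.26 and 6.19 FPKM (adjusted p = 1.55e-05). Only 1 of the 5 T cell markers, at no more than 0.0901 FPKM, and 0 of the 5 erythroid markers are listed. The part of these markers in the results was not tested.

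The RAB genes as a group leaned towards higher levels upon CEBPG knockdown. Of the 47 members with a mean of at least 0.5 FPKM, 18 rose and 6 fell at an adjusted p under 0.05 (limma with Benjamini-Hochberg adjustment over all genes tested), and 23 did not pass. Among all 12142 genes tested, 42.2% passed in either direction, 18.5% as higher and 23.8% as lower. Thus 24 of 47 members passed where the whole table called about 42 in 100, and 18 of these 24 were higher. The median log2 fold change, on the log2(FPKM + 1) scale used throughout, was 0.15 for the members and -0.04 for all genes tested. The summed FPKM of the 53 members was 820 and 887 in sh-NC cells and 992 and 947 in sh-CEBPG#3 cells, or 0.225% and 0.229% against 0.254% and 0.252% of the library total.

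The changes were moderate in size. Of the 24 calls, 15 held in every gene-level alternative that tested them, and the 9 lost without a filter or without 1 library were those of RAB2B, RAB6B, RAB9A, RAB11A, RAB17, RAB20, RAB29, RAB33A and RAB43. None of the 47 members passed the study's own threshold, an unadjusted p under 0.05 with an absolute log2 fold change above 1. Of all genes tested, 3.41% passed it. An unadjusted p under 0.05 in limma alone was reached by 25 of the 47 members and by 6139 of all 12142 genes. Because the added 1 FPKM damps low values, more genes passed the study's threshold with a smaller pseudocount, 827 of all 12142 with 0.1 and 882 with 0.01. Of the members, 4 passed it with either of these pseudocounts. These were RAB12, RAB33A and RAB40B, which were higher, and RAB15, which was lower.

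**Figure D1:**
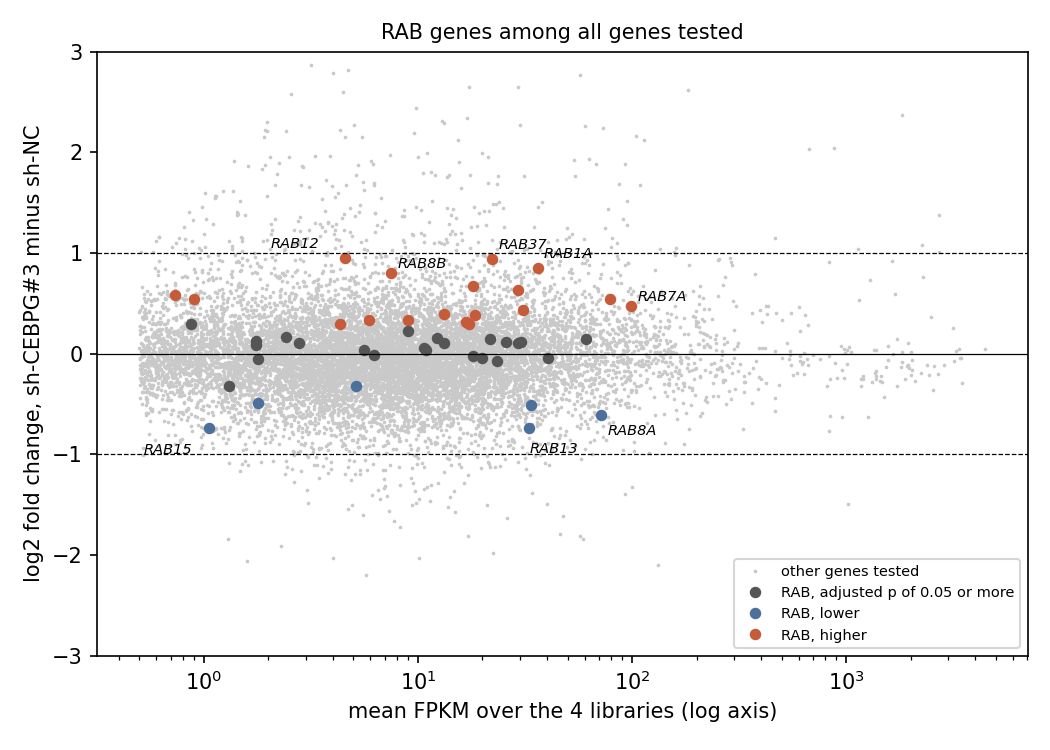
Each point is 1 gene, with its mean FPKM over the 4 libraries on a log x axis and its log2 fold change (sh-CEBPG#3 minus sh-NC) on the y axis; dashed lines mark a change of 1, and 15 genes beyond 3 in either direction are not drawn. The 47 RAB genes tested lie within the dashed lines, 18 of them marked as higher and 6 as lower.

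The most abundant member in the 4 libraries together was RAB7A, which governs the maturation of late endosomes and their fusion with lysosomes. It had 77.7 and 88.5 FPKM in sh-NC cells and 116 FPKM in both sh-CEBPG#3 libraries, with no overlap between the groups, and a log2 fold change of 0.48 (standard error 0.08, adjusted p = 0.000992 in limma). RAB5C, an early endosomal Rab, was next with 59.4 and 68.8 FPKM against 94.6 and 92.7 FPKM, a log2 fold change of 0.54 (standard error 0.08, adjusted p = 0.000576 in limma). RAB8A, which carries vesicles from the Golgi apparatus to the plasma membrane, followed and moved the other way, as described with the secretory members. RAB1B, a Rab of traffic between the endoplasmic reticulum (ER) and the Golgi apparatus, had 56.3 and 59.7 FPKM against 63.8 and 65.1 FPKM, and RAB11B, of recycling endosomes, had 38.1 and 44.2 FPKM against 42.8 and 36.8 FPKM. Neither RAB1B (adjusted p = 0.118 in limma) nor RAB11B (adjusted p = 0.739) passed the test, although the groups of RAB1B did not overlap. The order at the top of the family therefore changed. RAB8A held 9.92% and 10.4% of the RAB total in sh-NC cells and 5.82% in both sh-CEBPG#3 libraries, while RAB7A went from 9.47% and 9.98% to 11.7% and 12.2%.

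**Figure D2:**
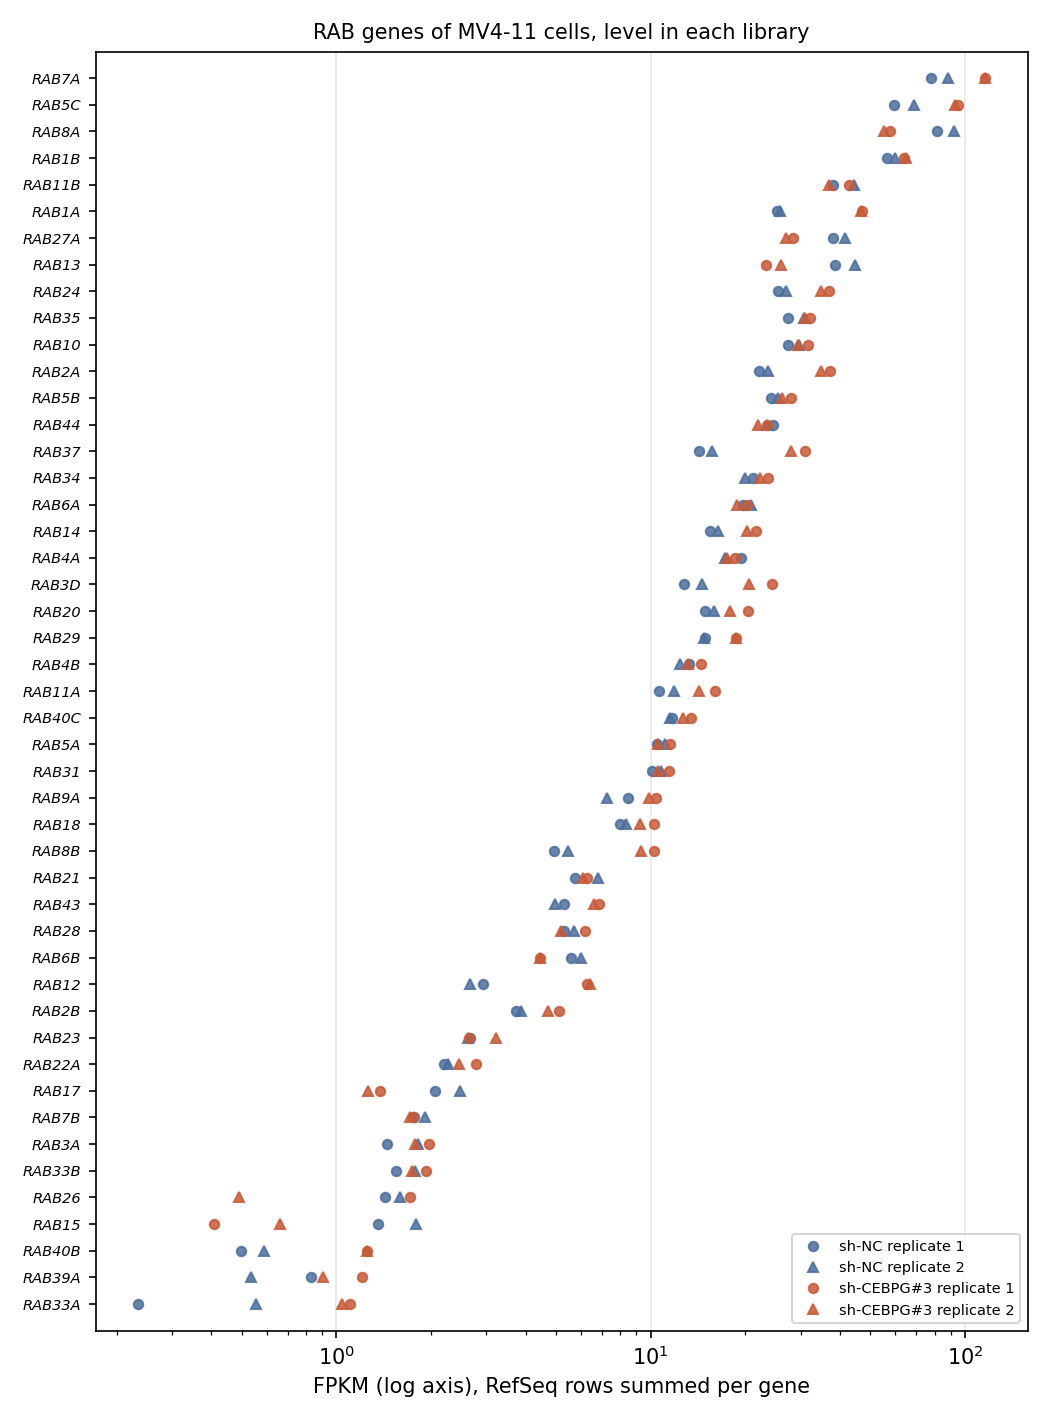
FPKM of the 47 RAB genes tested, on a log x axis, in sh-NC (blue) and sh-CEBPG#3 (red) libraries, with circles for replicate 1 and triangles for replicate 2, ordered by the mean of the 4 libraries. Levels ran from RAB33A, at 0.234 to 1.10 FPKM, to RAB7A, at 77.7 to 116 FPKM, and for RAB1A, RAB37, RAB12 and RAB8B both red points lie to the right of both blue points.

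Among the 12 tested members of ER and Golgi traffic, 6 rose and 1 fell, with a median log2 fold change of 0.26. Each member was counted in 1 role group only, so the counts and medians by role depend on this grouping. RAB1A, which tethers vesicles from the ER at the Golgi apparatus, had 25.3 and 25.8 FPKM in sh-NC cells and 46.9 and 46.7 FPKM in sh-CEBPG#3 cells. The groups did not overlap, and the log2 fold change of RAB1A was 0.85 with a standard error of 0.07 (adjusted p = 1.38e-05 in limma). RAB2A, which acts in the same transport step and in the delivery of cargo to lysosomes, rose from 22.0 and 23.6 FPKM to 37.0 and 34.8 FPKM (log2 fold change 0.63, standard error 0.08, adjusted p = 0.000165). RAB12 was counted in this group, although it is linked to receptor degradation and autophagy. It had 2.94 and 2.67 FPKM in sh-NC cells and 6.28 and 6.43 FPKM in sh-CEBPG#3 cells. Its log2 fold change of 0.95 (standard error 0.10, adjusted p = 4.92e-05) was the highest of the family at a pseudocount of 1, with RAB37 at 0.94 within a standard error of it. At a pseudocount of 0.1, RAB33A (1.32) lay above RAB12 (1.15). The mean FPKM of RAB12 was 2.27 times the control mean, below the ratios of RAB33A (2.71) and RAB40B (2.30). RAB33A, a Golgi Rab and the least abundant member tested, had 0.234 and 0.557 FPKM against 1.10 and 1.04 FPKM (log2 fold change 0.58, standard error 0.15, adjusted p = 0.0124). Its adjusted p rested on the control libraries, which differed by more than 2-fold, and without sh-NC replicate 1 the call was lost. Smaller increases passed for RAB43 (0.33, adjusted p = 0.0153) and RAB2B (0.30, adjusted p = 0.0329). The neuronal Golgi Rab RAB6B was the member that fell, from 5.57 and 6.01 FPKM to 4.45 FPKM in both sh-CEBPG#3 libraries (-0.32, adjusted p = 0.0212).

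**Figure D3:**
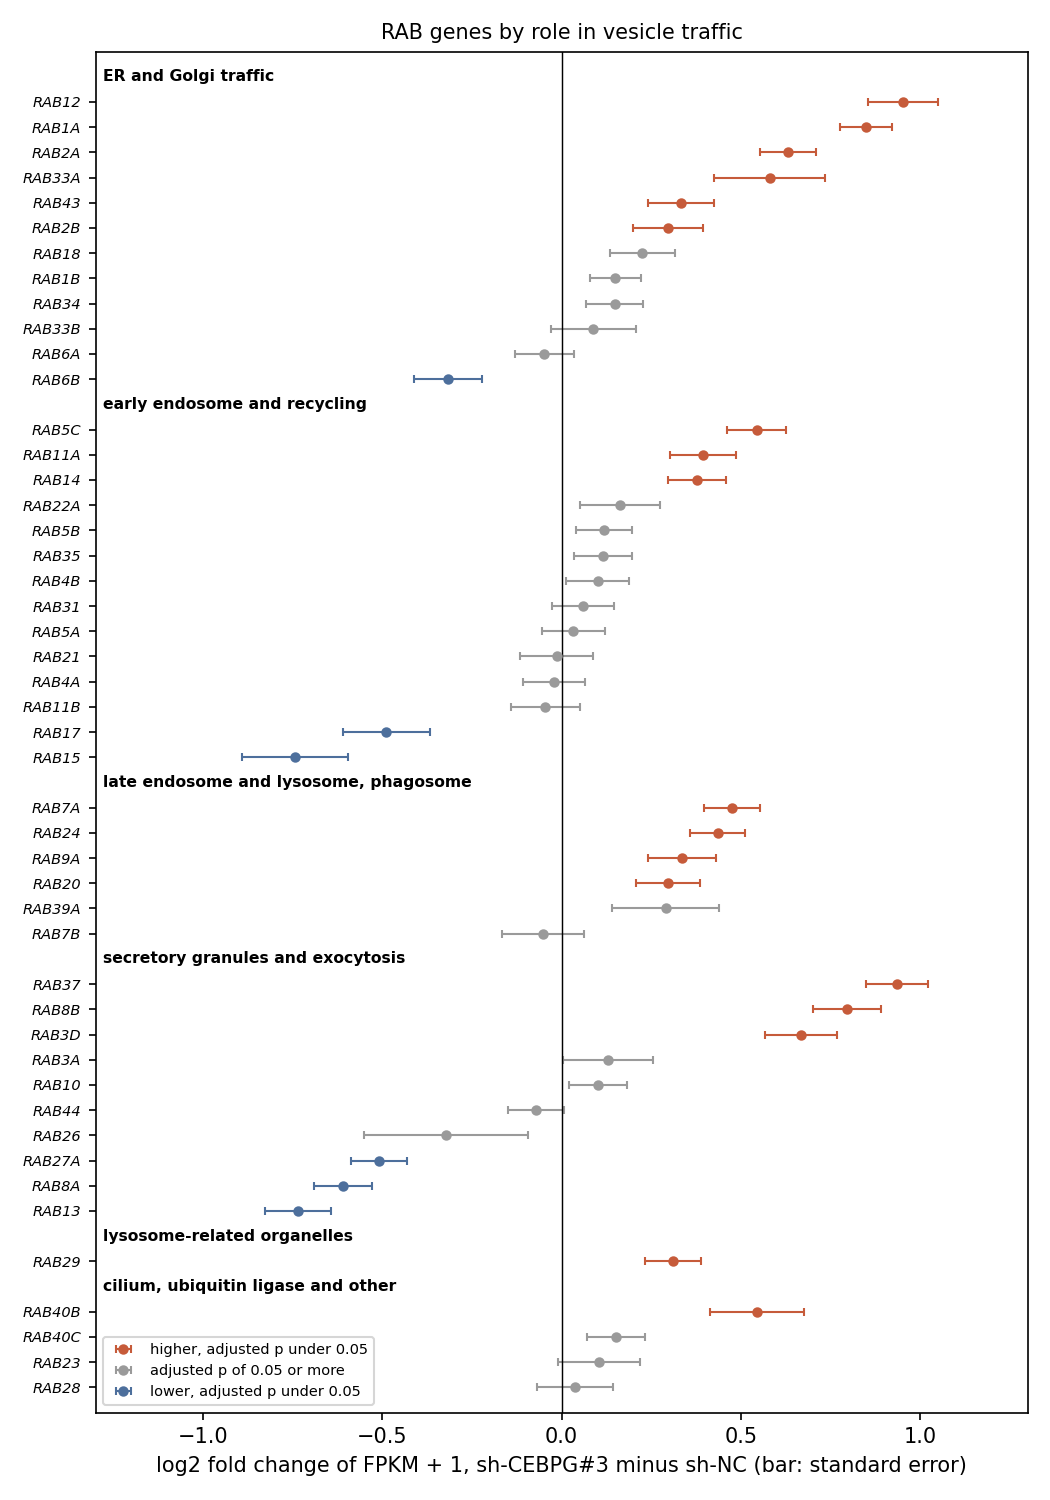
Log2 fold change of FPKM + 1 (sh-CEBPG#3 minus sh-NC, x axis) of each RAB gene tested, grouped by role, with bars for the limma standard error; red is higher and blue lower at an adjusted p under 0.05, and grey did not pass. All 4 called members of the late endosome group lie to the right of 0, whereas the secretory group has 3 called members on each side.

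Late endosomal, lysosomal and phagosomal members were higher where they passed. Of the 6 tested, 4 rose and none fell, with a median log2 fold change of 0.32. Besides RAB7A these were RAB24, which takes part in autophagy, RAB9A, which returns receptors from late endosomes to the Golgi apparatus, and RAB20, which is found on phagosomes. RAB24 had 25.4 and 26.9 FPKM against 36.8 and 34.7 FPKM, a log2 fold change of 0.44 (standard error 0.08, adjusted p = 0.0014 in limma). No single transcript of RAB24 passed. Its most abundant, NM_001031677, overlapped between the groups, with 8.79 and 13.4 FPKM against 13.2 and 13.7 FPKM (adjusted p = 0.434 in limma). RAB9A had 8.44 and 7.24 FPKM against 10.4 and 9.87 FPKM (0.34, adjusted p = 0.0175), and RAB20 had 14.9 and 15.9 FPKM against 20.5 and 17.9 FPKM (0.30, adjusted p = 0.0227). RAB39A (0.29, adjusted p = 0.143) and RAB7B (-0.05, adjusted p = 0.747) did not pass. RAB29, the only tested Rab of the lysosome-related organelle group, was also higher, with 14.9 and 14.8 FPKM against 18.6 and 18.7 FPKM (0.31, standard error 0.08, adjusted p = 0.00906).

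Some markers of monocyte and macrophage maturation moved with the knockdown as well. Of the 8 markers chosen for this check, 5 were tested and 3 of these (CD68, CSF1R and FCGR1A) rose. ITGAM (0.09, adjusted p = 0.451 in limma) and CD86 (0.11, adjusted p = 0.508) did not pass. The 7 markers that are listed had a summed level of 74.8 to 87.7 FPKM in the sh-NC libraries and 150 to 162 FPKM in the sh-CEBPG#3 libraries. The largest part of this sum was CD68, with 44.7 and 54.9 FPKM against 115 and 107 FPKM. The defining markers CD14 and CD163 had at most 0.187 FPKM in sh-NC cells and at most 1.09 FPKM in sh-CEBPG#3 cells. LYZ, the lysozyme gene, was 5.19 times its control mean. The part of maturation in the RAB differences was not tested.

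Early endosomal and recycling members changed in both directions. Of 14 tested, 3 rose, 2 fell and 9 did not pass, with a median log2 fold change of 0.08. Besides RAB5C, RAB14, a Rab of endosome to Golgi traffic, went from 15.4 and 16.4 FPKM to 21.6 and 20.3 FPKM (0.38, adjusted p = 0.00423 in limma). RAB11A, the main Rab of recycling endosomes, went from 10.7 and 11.9 FPKM to 16.0 and 14.3 FPKM (0.39, adjusted p = 0.00663). RAB15, which slows recycling from early endosomes, had 1.35 and 1.78 FPKM in sh-NC cells and 0.409 and 0.66 FPKM in sh-CEBPG#3 cells, or 34.0% of the control mean (-0.74, standard error 0.15, adjusted p = 0.00282). RAB17, known mainly from polarized epithelia, had 2.05 and 2.47 FPKM against 1.38 and 1.26 FPKM (-0.49, adjusted p = 0.0094). Its coding transcript NM_022449 overlapped between the groups, with 2.05 and 0.915 FPKM against 1.38 and 0.998 FPKM. The rest was the noncoding NR_033308, with 0 and 1.55 FPKM against 0 and 0.265 FPKM. Summed per gene, the groups did not overlap for RAB5C, RAB14, RAB11A, RAB15 or RAB17. This held for all 24 called members and for 10 of the 23 that did not pass. How many of all genes tested had no overlap was not counted, so these counts have no share to be set against. The early endosomal RAB5A and RAB5B, the recycling RAB4A and RAB4B, and RAB21, RAB22A, RAB31 and RAB35 had log2 fold changes from -0.02 to 0.16.

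The secretory members went both ways. Of 10 tested, 3 rose and 3 fell, and the median log2 fold change was 0.01. RAB37, a Rab of mast cell and other secretory granules, had 14.2 and 15.6 FPKM in sh-NC cells and 31.0 and 27.9 FPKM in sh-CEBPG#3 cells. Its mean rose 1.98-fold, with a log2 fold change of 0.94 (standard error 0.09, adjusted p = 2.48e-05 in limma). RAB3D, a further granule Rab, had 12.8 and 14.6 FPKM against 24.3 and 20.5 FPKM (0.67, standard error 0.10, adjusted p = 0.000576). In contrast, RAB27A, which docks granules of leukocytes and melanosomes at the plasma membrane, fell from 38.0 and 41.5 FPKM to 28.3 and 26.9 FPKM (-0.51, standard error 0.08, adjusted p = 0.000648). RAB13, a Rab of cell junctions and of transport to the plasma membrane, fell from 38.7 and 44.6 FPKM to 23.2 and 26.0 FPKM (-0.74, standard error 0.09, adjusted p = 0.000172). The level of RAB27A was thus 2.67 and 2.65 times that of RAB37 in the sh-NC libraries and 0.914 and 0.962 times in the sh-CEBPG#3 libraries. RAB44, a large Rab of myeloid granules, had 24.4, 23.4, 23.4 and 22.0 FPKM in the 4 libraries and did not pass (adjusted p = 0.488). RAB10, RAB3A and RAB26 did not pass either, and RAB26 differed between the sh-CEBPG#3 libraries, with 1.71 and 0.489 FPKM.

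RAB8A and RAB8B, close paralogs of exocytic transport, moved in opposite directions. RAB8A had 81.4 and 92.1 FPKM in sh-NC cells and 57.7 and 55.1 FPKM in sh-CEBPG#3 cells, a log2 fold change of -0.61 (standard error 0.08, adjusted p = 0.000239 in limma). RAB8B had 4.93 and 5.47 FPKM against 10.2 and 9.32 FPKM, a log2 fold change of 0.80 (standard error 0.09, adjusted p = 0.000128). The ratio of RAB8A to RAB8B was 16.5 and 16.8 in sh-NC cells and 5.65 and 5.92 in sh-CEBPG#3 cells, while the sum of both was 86.3 and 97.6 against 67.9 and 64.5 FPKM. RAB8A therefore stayed the more abundant paralog in every library. In the RAB1, RAB5 and RAB11 families 1 paralog passed, whereas RAB2A and RAB2B both rose. RAB1A rose from 0.449 and 0.433 to 0.736 and 0.718 times the level of RAB1B, and RAB5C rose from 5.69 and 6.21 to 8.20 and 8.81 times that of RAB5A. The ratio of RAB11A to RAB11B went from 0.28 and 0.269 to 0.373 and 0.387. A difference between paralogs was not tested as such, and these ratios compare levels per transcript length.

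The last group holds members of cilia and ubiquitin ligases. RAB40B, which joins a ubiquitin ligase complex through its SOCS box, had 0.498 and 0.589 FPKM against 1.25 FPKM in both sh-CEBPG#3 libraries (0.54, standard error 0.13, adjusted p = 0.0077 in limma), and its mean was 2.30 times the control mean. The more abundant RAB40C (11.7 and 11.5 against 13.4 and 12.6 FPKM) and the ciliary RAB23 and RAB28 did not pass. Of all 53 members, RAB6C, RAB6D, RAB30, RAB36, RAB38 and RAB41 were not tested, as none exceeded 0.29 FPKM in a library.

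The deposited table also separates the RefSeq transcripts of a gene. Tested transcript by transcript, 11 of the 72 RAB transcripts with a mean of at least 0.5 FPKM passed an adjusted p under 0.05, against 8.24% of all 18624 transcripts tested. The 11 transcripts belong to RAB1A, RAB2A, RAB5C, RAB7A, RAB8A, RAB8B, RAB12, RAB13, RAB27A and RAB37. For RAB37, NM_001006638 carried most of the level, with 13.4 and 14.5 FPKM against 28.1 and 24.9 FPKM, and the minor NM_001163990 went from 0.287 and 0 FPKM to 1.85 and 2.05 FPKM. Both passed in the same direction. The RAB transcript calls did not hold with any 1 library left out, where almost no transcript of the whole table passed either. Without the filter on low values 2 of 102 RAB transcripts passed, against 2.76% of all transcripts.

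Of the 21 members with several transcripts, RAB6A, RAB29, RAB34 and RAB35 held transcripts that went opposite ways without overlap between the groups. These transcripts each reached a mean of 1 FPKM in a group, and no transcript of these 4 genes passed the test. How often genes outside the family hold such transcripts was not counted. RAB6A, the main Rab of traffic through the Golgi apparatus, had about the same total in all libraries (19.6, 20.8, 20.3 and 18.8 FPKM). Within it, NM_002869 had 10.5 and 13.4 FPKM in sh-NC cells and 10.1 and 7.93 FPKM in sh-CEBPG#3 cells, and NM_198896 had 9.14 and 7.28 FPKM against 9.91 and 10.7 FPKM. The adjusted p was 0.263 for NM_002869 and 0.239 for NM_198896. In RAB35, a Rab of recycling from the plasma membrane, NM_006861 had 21.9 and 18.1 FPKM against 29.0 and 28.8 FPKM (adjusted p = 0.0673). The second transcript NM_001167606 had 5.52 and 12.7 FPKM against 3.11 and 2.18 FPKM (adjusted p = 0.12), so its share of the gene was 20.2% and 41.1% in sh-NC cells and 9.70% and 7.05% in sh-CEBPG#3 cells. The control replicates of NM_001167606 differed by more than 2-fold. In RAB29, NM_001135662 had 8.46 and 7.89 FPKM against 9.90 and 10.8 FPKM, and NM_001135663 had 3.90 and 3.31 FPKM against 2.97 and 2.65 FPKM. In RAB34, which positions lysosomes and acts at the cilium, NM_031934 had 4.91 and 3.47 FPKM against 5.24 and 9.40 FPKM, and NM_001144942 had 1.60 and 1.98 FPKM against 1.35 and 1.03 FPKM. RAB23 and RAB28 also held opposed transcripts, of which the lower one stayed under 1 FPKM. In RAB23, NM_016277 had 1.27 and 1.61 FPKM against 2.33 and 2.37 FPKM, and NM_001278666 had 0.633 and 0.432 FPKM against 0.308 and 0.206 FPKM. In RAB28, NM_004249 had 0.431 and 0.297 FPKM against 0.815 and 1.32 FPKM, and NM_001159601 had 0.8 and 0.311 FPKM against 0.0403 and 0.0477 FPKM. Replicates of other RAB34 transcripts lay far apart, such as those of NM_001144943 with 6.58 and 1.76 FPKM in sh-NC cells and 11.2 and 3.53 FPKM in sh-CEBPG#3 cells.

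**Figure D4:**
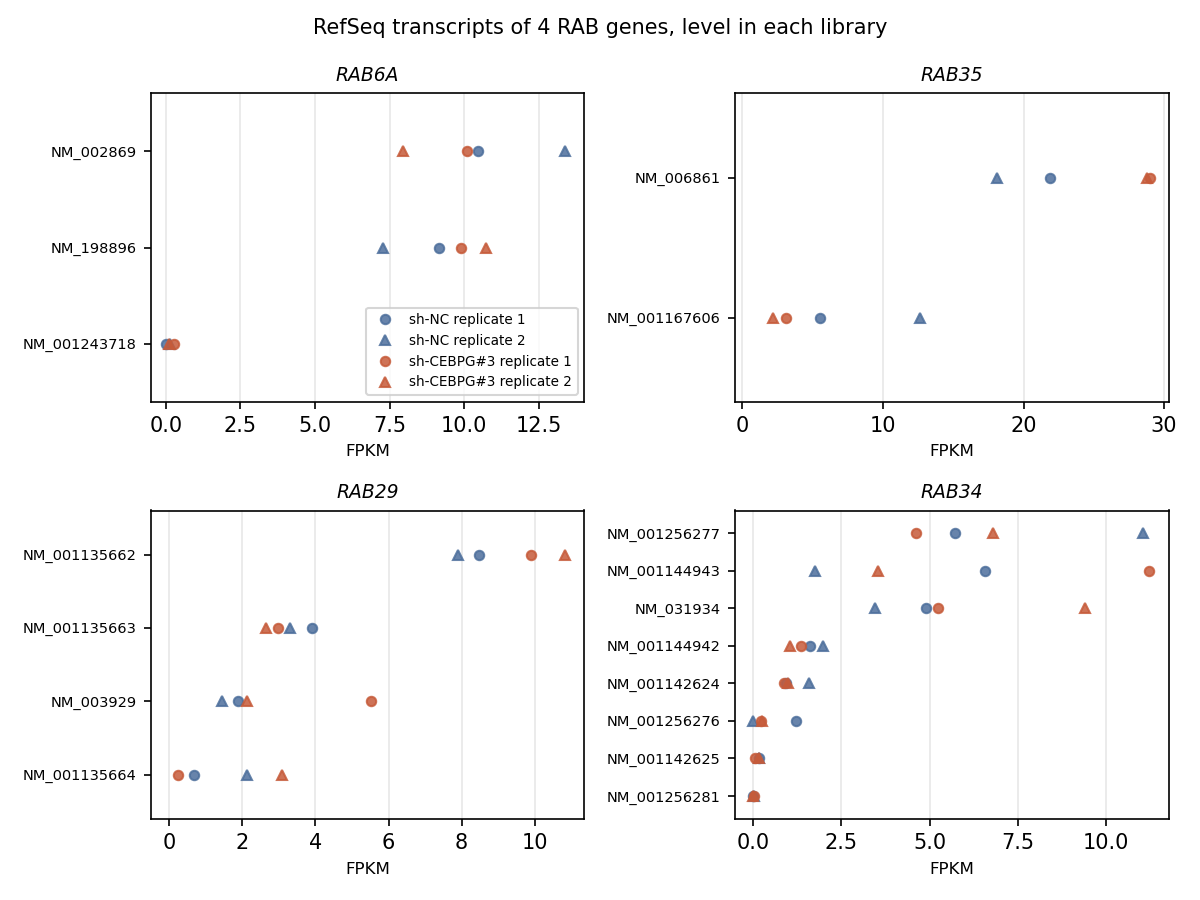
FPKM (x axis) of each listed RefSeq transcript of RAB6A, RAB35, RAB29 and RAB34 in sh-NC (blue) and sh-CEBPG#3 (red) libraries, circles for replicate 1 and triangles for replicate 2. In RAB35 both red points of NM_006861 lie to the right of the blue points and both red points of NM_001167606 lie to the left, and in RAB34 the replicates of a group lie far apart.

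Part of the exon sequence of many RAB genes is shared with a neighbouring gene, and it is not stated whether strand was used in the quantification. In the GENCODE annotation of GRCh38, 29 of the 53 members have exon bases that also belong to exons of another gene. In 13 members at least 20% of the exon bases were shared with 1 other gene. The overlap reached 79.3% of RAB43 (with the readthrough gene ISY1-RAB43), 57.8% of RAB23 (with BAG2, opposite strand) and 44.8% of RAB24 (with MXD3, same strand). Among the other members described, it was 39.8% of RAB8A and 30.2% of RAB1B (both opposite strand), 28.8% of RAB5C (same strand), 27.3% of RAB4B (same strand), 24.8% of RAB13 (same strand), 22.9% of RAB1A (with CEP68, opposite strand), 21.3% of RAB37 and 20.7% of RAB3D (both opposite strand). These are shares of annotated exon bases and not of reads, so how far the overlaps affect the FPKM of these members is unknown. BAG2 had 21.3 and 20.5 FPKM in sh-NC cells against 17.7 and 15.8 FPKM, MXD3 had 4.12 and 3.64 FPKM against 3.29 and 4.29 FPKM, and CEP68 had 3.68 and 3.89 FPKM against 3.58 and 3.51 FPKM. Some neighbours with a smaller overlap moved in the same direction as the RAB gene. SRPRB, which shares 6.29% of the exon bases of RAB6B on the opposite strand, had 27.8 and 29.0 FPKM against 14.2 and 12.9 FPKM. TMEM205, which shares 3.29% of those of RAB3D on the same strand, had 46.8 and 46.6 FPKM against 62.9 and 56.8 FPKM. The part of neighbouring genes in the RAB values was not tested. RAB6C and RAB6D are near-identical copies of RAB6A, and how reads that match several copies were assigned is not stated.

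RAB1A lies on chromosome 2 (65086854 to 65130106, GRCh38), RAB37 on chromosome 17 (74671131 to 74747335) and RAB12 on chromosome 18 (8609437 to 8639383). RAB8B lies on chromosome 15 (63189606 to 63267776), as does RAB27A (55202966 to 55319123), while RAB8A lies on chromosome 19 (16111889 to 16134234), RAB13 on chromosome 1 (153981650 to 153990708), RAB7A on chromosome 3 (128726183 to 128814798) and RAB5C on chromosome 17 (42124979 to 42154989). The members that moved are thus spread over many chromosomes.

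The promoters of the members were searched for 4 motifs, since CEBPG binds DNA as a C/EBP protein. RefSeq promoters (GRCh38.p14, 250 bases before to 50 after the start) were matched for 41 of the 53 members and not for RAB1A, RAB2A, RAB12, RAB15, RAB20, RAB26, RAB33A, RAB33B, RAB36, RAB37, RAB38 and RAB44. The C/EBP motif TTNCGNAA was found in 2 of the 41 genes, RAB2B and RAB9A, and in 2.57% of all 35116 promoters. Members were counted by gene and the whole set by promoter, so the shares are in unlike units. Both genes were higher in sh-CEBPG#3 cells, though both calls were among the 9 lost in some alternative. The C/EBP-ATF motif TGATGNAA occurred in RAB28 alone (3.62% of all promoters), and the lysosomal CLEAR motif TCACGTGA in RAB5A and RAB21 (0.98%), of which no gene passed the test. An interferon-stimulated response element, read as GAAA, any 2 bases and GAAA, occurred in RAB27A (3.57% of all promoters), which was lower. Both strands were searched, and a match describes letters in this window and not a bound site.

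The windows with the C/EBP motif of RAB2B and RAB9A and the interferon motif of RAB27A are shown because these 3 genes passed the test, with the motif in capitals and each read 5′ to 3′ on the strand of its gene. They lie upstream of the annotated start, at chr14:21477180-21477209 (minus strand), chrX:13688895-13688924 (plus strand) and chr15:55319344-55319373 (minus strand).
RAB2B: cgtcacTTCCGCAAggacgtgtgttctctc
RAB9A: ttatttccactTTACGTAAacttttcaaaa
RAB27A: caaggtagacTTTCTCTTTCgcagctttat

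The genes that load, switch and read the Rab proteins were described by 4 lists. Of the 106 genes of these lists that were tested, 24 rose and 17 fell, or 41 of 106, close to the 42.2% of all genes. The prenylation, escort and GDI genes, which attach the lipid anchor and carry Rabs between membranes, had 3 higher, none lower and 5 of 8 that did not pass. Of the GEFs, 7 of 32 rose and 4 fell, and of the effectors 6 of 35 rose and 5 fell. The GAPs were called most often, with 8 higher and 8 lower of 31.

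Of the 106 list genes tested, 3 GAPs and 1 effector passed the study's threshold, with an absolute log2 fold change above 1. Among all genes tested, 3.41% did. With a pseudocount of 0.1 or 0.01, 8 list genes passed it, where 827 and 882 of all 12142 genes did. The number also varied with each library left out. TBC1D4, the GAP known as AS160 that acts on RAB8A, RAB10 and RAB14, had 5.64 and 5.72 FPKM in sh-NC cells and 2.18 and 1.72 FPKM in sh-CEBPG#3 cells (-1.18, standard error 0.11, adjusted p = 2.7e-05 in limma). TBC1D16, a GAP for RAB4A, fell from 4.96 FPKM in both sh-NC libraries to 1.72 and 1.83 FPKM (-1.11, standard error 0.10, adjusted p = 2.47e-05). TBC1D2, a GAP for RAB7A, rose from 3.12 and 3.53 FPKM to 7.98 and 7.78 FPKM (1.04, standard error 0.10, adjusted p = 2.56e-05). The autophagy receptor OPTN, which binds RAB8A, rose from 3.04 and 3.61 FPKM to 9.34 and 9.64 FPKM (1.28, standard error 0.10, adjusted p = 8.14e-06). In each of these 4 genes the groups did not overlap, which was also so for many list genes that did not pass.

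A few further genes of the lists were chosen after their values were seen. TBC1D17, a GAP, rose from 4.19 and 4.69 FPKM to 9.90 and 9.34 FPKM (0.97, adjusted p = 3.58e-05 in limma). RIN1, a GEF of the RAB5 group, rose from 7.68 and 8.88 FPKM to 17.7 and 16.0 FPKM (0.95, adjusted p = 4.58e-05 in limma). MLPH, the melanophilin that couples RAB27A to myosin, was lower at a low level, with 1.31 and 1.26 FPKM against 0.0702 and 0.45 FPKM (-0.87, adjusted p = 0.00217). UNC13D, the priming factor that RAB27A recruits in leukocytes, was higher, with 20.8 and 21.6 FPKM against 28.8 and 27.6 FPKM (0.40, adjusted p = 0.00235).

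**Figure D5:**
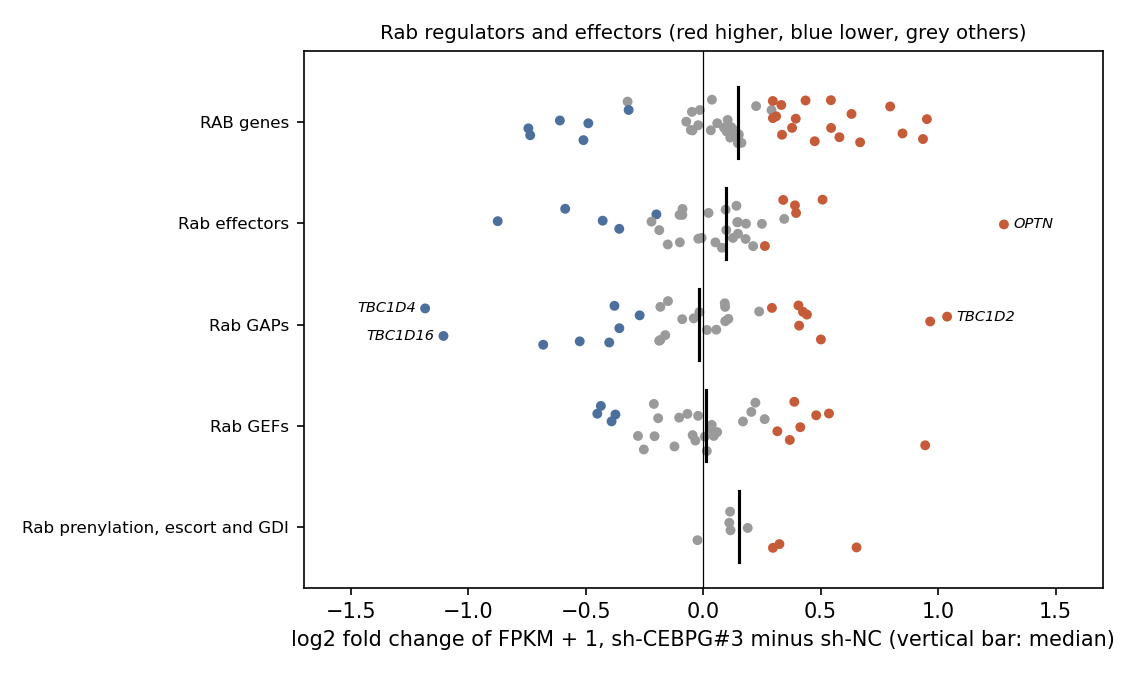
Log2 fold change of FPKM + 1 (sh-CEBPG#3 minus sh-NC, x axis) for each tested gene of the 4 lists and for the RAB genes, with a vertical bar for the median of each; red and blue points passed an adjusted p under 0.05. The median was 0.15 for the prenylation, escort and GDI genes, 0.01 for the GEFs, -0.02 for the GAPs, 0.10 for the effectors and 0.15 for the RAB genes, and the 4 labelled genes lie beyond 1.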

How the data were processed

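Reads were filtered and aligned with HISAT by the authors, whose deposited FPKM values give 1 value per RefSeq transcript and library for 2 sh-NC and 2 sh-CEBPG#3 libraries. The submitters' processing notes name HISAT2 2.0.5 and hg38. The program that made the FPKM values and the annotation version are not given in the sources used here. Read depth is unknown, and no interval or floor is given. The authors tested counts with DESeq2, which FPKM values do not allow. FPKM were summed per gene symbol, and log2(FPKM + 1) of 12142 genes, those averaging 0.5 FPKM or more, was fitted with limma 3.58.1 (eBayes with trend, no block) in R 4.3.3. P-values are two-sided and were adjusted by the Benjamini-Hochberg method over all genes. The fit was checked on simulated data. An exact two-sided permutation test of 2 against 2 libraries cannot give a p under 0.333, so the p-values rest on limma's variance model.

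Called members (adjusted p under 0.05) whose log2 fold change was 0.5 or more in size, the 5 most abundant members and members with opposed, non-overlapping transcripts that each reach a mean of 1 FPKM in a group were described with all values, and list genes beyond a log2 change of 1 were named. Other called members are also given. The members, roles, motifs and gene lists were chosen with earlier results of these data known. Alternatives were other pseudocounts, filters and scalings, the replicate block, each library left out and the most abundant transcript. Promoter sequences are from RefSeq (GRCh38.p14) and exon overlaps from GENCODE, read with Python 3.11.15. Proteins were not used here. Some results for single genes of the lists are not reported here.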

Additional observations from a re-analysis of the deposited data

How the results depend on the processing

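All 24 called members kept their direction in every gene-level alternative that tested them, and 15 of them also kept an adjusted p under 0.05. The 9 that lost it somewhere were RAB2B, RAB6B, RAB9A, RAB11A, RAB17, RAB20, RAB29, RAB33A and RAB43, in the fit without a filter or with a library left out. The count of 24 called members was 24 with either smaller pseudocount, 20 of 53 with no filter and 22 of 44 with a mean of at least 1 FPKM. It was 27 with quantile normalization and 25 with equal totals. Of all genes tested, 41.4% and 41.2% were called with pseudocounts of 0.1 and 0.01, 24.8% with no filter and 45.5% with a mean of at least 1 FPKM. The share was 47.4% with quantile normalization and 48.2% with equal totals. With each library left out, the lone library of a group is assumed to vary like the others. The count of members past the study's threshold was 0, but 4 with a pseudocount of 0.1 and 4 with 0.01, where 827 and 882 of all 12142 genes passed. With a library left out, RAB12 was at 1.00 without sh-NC replicate 1 and RAB37 at 1.01 without sh-CEBPG#3 replicate 2. The 11 RAB transcripts called became 2 of 102 with no filter and 0 of 72 with the replicate block, where 2.76% and 0.60% of all transcripts passed. With the block, 24 RAB transcripts and 4493 of all 18624 had an unadjusted p under 0.05 in limma. None of the 11 calls held with a library left out. The list genes called numbered 41, and 30 to 36 with a library left out. With the replicate number as a block 24 RAB genes were called, and the deviations of same-numbered libraries correlated at 0.0606, so the numbers were not taken to pair the libraries. Of 346 values for 29 single members, 4 reversed, and none of these was a called value. RAB11B (-0.05) was 0.059 without sh-NC replicate 2 and 0.0603 without sh-CEBPG#3 replicate 2 and ranged from -0.1508 to 0.0603 over the libraries left out, RAB6A (-0.05) was 0.0047 without sh-CEBPG#3 replicate 2 and ranged from -0.1001 to 0.0047, and RAB34 (0.15) was -0.44 by its most abundant transcript. Represented by its most abundant transcript alone in the transcript-level fit, 14 called members lost the call. Of these, RAB3D, RAB6B, RAB11A, RAB14, RAB20, RAB33A and RAB40B have a single transcript, so their log2 fold changes were the same. For them only the fit differed, in which 8.24% of all transcripts passed against 42.2% of all genes. The adjusted p of RAB3D in limma was 0.000576 by gene and 0.0539 by transcript. The cause of the other losses was not tested. Precision is limited by 2 libraries per group and unknown depth.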
